A study of Rattus norvegicus with 24 samples.

Results

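Mbp and Mog, the genes of myelin basic protein and myelin oligodendrocyte glycoprotein, were followed by their identifiers ENSRNOG00000016516 and ENSRNOG00000000775 through cultures of primary rat oligodendrocyte precursor cells (OPCs) and of oligodendrocytes (OLs) grown from them. They are 2 of the 32883 genes in the count tables. RNA was sequenced in 6 conditions with 4 libraries each. OPCs were sampled after 24 hours in proliferation medium, either untreated, with the vehicle DMSO at 0.04%, or with 8 µM of dolutegravir (DTG), an inhibitor of HIV integrase. OLs were sampled after the same 24 hours and 72 further hours in differentiation medium, again untreated, with DMSO or with DTG throughout. The DTG-treated cells therefore received the same solvent as the DMSO-treated cells and the untreated cells did not. All cultures came from the cortices of neonatal Sprague Dawley rats. OPCs were shaken off mixed glial cultures, which enriches them without removing every other cell, and a replicate is a preparation from a separate litter.

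Myelin is the stack of membrane that OLs wrap around axons, and OPCs are the dividing cells from which OLs arise. Myelin basic protein lies on the cytoplasmic face of that membrane and holds adjoining faces together, and its mRNA is carried into the cell's processes and translated there. Myelin oligodendrocyte glycoprotein is an immunoglobulin-family protein on the outermost surface of the sheath and appears late in the maturation of an OL. Both transcripts are used as signs that an OL has begun to make myelin proteins.

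The libraries held between 13241279 and 18499994 counts on genes. Levels are given in CPM, the usual scale of read counts relative to library size, which is each gene's share of the library after scaling with edgeR's TMM method over 22 libraries. The other 2 libraries, replicate 3 of untreated OPCs and of untreated OLs, were counted on a different set of 30560 gene models with other positions and lengths, and are given apart. Untreated groups therefore have n = 3. The cultures were sequenced in bulk, so fewer cells that express a gene and less RNA per cell cannot be told apart.

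In the gene models of the count tables, of the Rnor_6.0 build according to the submitters' processing notes, Mbp spans positions 79326738 to 79437310 of the plus strand of chromosome 18 and has 3371 exonic bases in 10 separate blocks. Mog spans positions 2004052 to 2014286 of the plus strand of chromosome 20, with 1577 exonic bases in 8 blocks. A gene without a symbol in the tables used here, ENSRNOG00000022730, lies on the opposite strand and shares 117 bases, 7.42%, with the exons of Mog. The sources used here do not state that the counting used strand, so reads in those bases cannot be assigned to one gene with certainty. The neighbour had between 31 and 124 counts per library and averaged 5.67 ± 1.02 CPM (SD, n = 4) in DMSO-treated OLs and 4.05 ± 0.907 CPM (n = 4) in DMSO-treated OPCs. No other gene overlaps the exons of Mbp. The 28 exon entries of Mbp were counted together as 1 gene, so transcript forms of Mbp cannot be told apart in OPCs or OLs.

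Mbp, as counted over the whole gene, was already present in OPCs. In untreated OPCs it was counted at 279, 336 and 145 CPM in replicates 1, 2 and 4. In DMSO-treated OPCs it stood at 238, 306, 196 and 141 CPM in replicates 1 to 4. DTG-treated OPCs had 176, 213, 199 and 104 CPM of Mbp. The ranges of these OPC groups overlapped, and replicate 4 was the lowest library of each.

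In OLs, Mbp was among the most abundant transcripts. Untreated OLs had 6612, 9844 and 3861 CPM in replicates 1, 2 and 4. DMSO-treated OLs had 7409, 11394 and 10236 CPM in replicates 1, 2 and 3, and 4293 CPM in replicate 4. DTG-treated OLs had 2406, 4228, 4330 and 1701 CPM in the same order. Every OL library lay above every OPC library, and replicate 4 was again the lowest in each group. By counts, Mbp ranked between 4 and 13 among all genes in the untreated and DMSO-treated OLs of this gene model set. The same rank ran from 19 to 43 in DTG-treated OLs and from 463 to 2008 in OPCs.

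Mog was a rare transcript in OPCs. It was counted at 4.79, 4.00 and 4.12 CPM in untreated OPCs of replicates 1, 2 and 4. DMSO-treated OPCs had 4.13, 2.73, 4.34 and 3.41 CPM, and DTG-treated OPCs had 4.82, 3.42, 4.14 and 3.56 CPM, in replicates 1 to 4. These values rest on 40 to 95 counts per library, and the 3 groups overlapped.

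In OLs, Mog was a transcript of intermediate abundance. Untreated OLs had 42.1, 45.3 and 32.6 CPM in replicates 1, 2 and 4. DMSO-treated OLs had 46.1, 51.9, 48.2 and 34.3 CPM of Mog. DTG-treated OLs had 26.6, 21.4, 21.4 and 20.4 CPM, so that all 4 lay below every untreated and DMSO-treated OL library and above every OPC library.

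**Figure D1:**
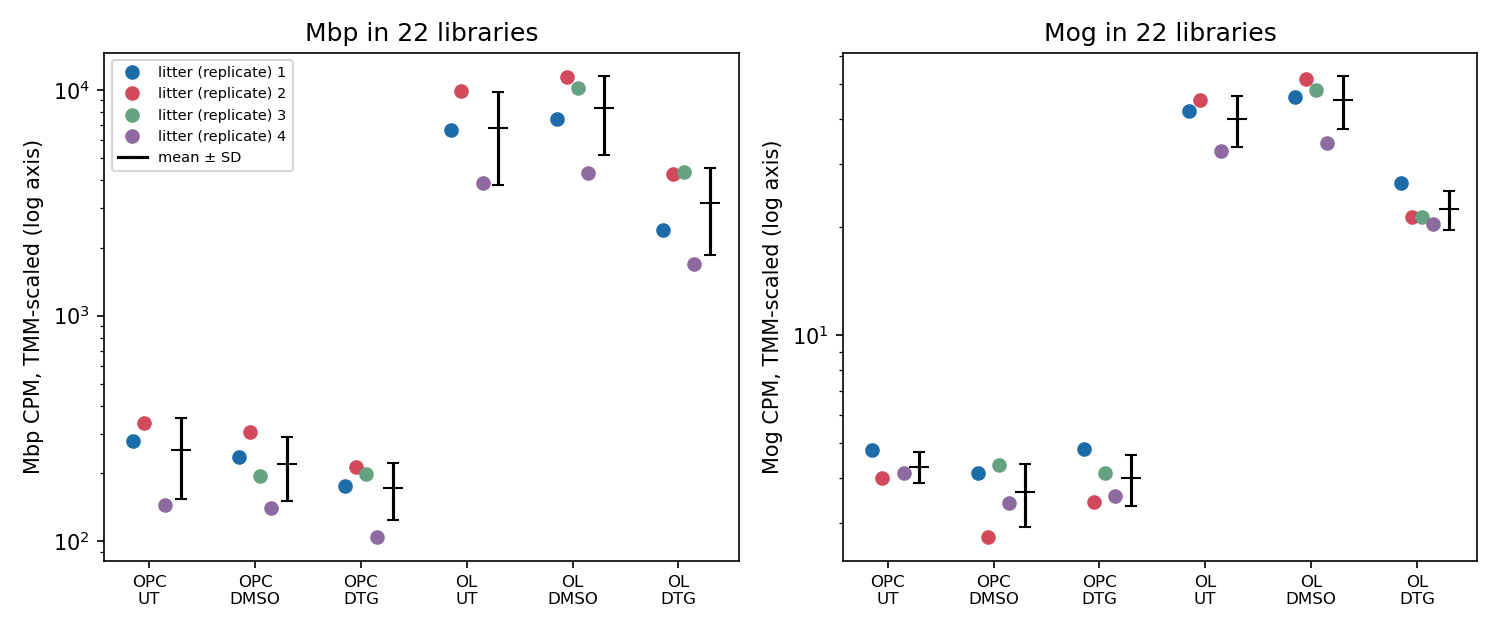
Level of Mbp (left) and Mog (right) in CPM on a log axis for the 22 libraries counted on the same gene models. Each point is 1 library, coloured by replicate, and the black bar is the mean ± SD. Mbp in DTG-treated OLs reached 4330 CPM, just above the lowest DMSO-treated OL library at 4293 CPM, whereas Mog in DTG-treated OLs did not exceed 26.6 CPM and the lowest DMSO-treated OL library had 34.3 CPM.

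In order of mean level, Mbp fell from DMSO-treated OLs (8333 ± 3171 CPM, SD, n = 4) to untreated OLs (6772 ± 2995 CPM, n = 3), DTG-treated OLs (3166 ± 1317 CPM, n = 4), untreated OPCs (253 ± 98.2 CPM, n = 3), DMSO-treated OPCs (220 ± 69.6 CPM, n = 4) and DTG-treated OPCs (173 ± 48.5 CPM, n = 4). Neighbours in this order overlapped except DTG-treated OLs and untreated OPCs. The order of Mog was DMSO-treated OLs (45.1 ± 7.63 CPM, n = 4), untreated OLs (40.0 ± 6.57 CPM, n = 3), DTG-treated OLs (22.4 ± 2.84 CPM, n = 4), untreated OPCs (4.30 ± 0.425 CPM, n = 3), DTG-treated OPCs (3.99 ± 0.639 CPM, n = 4) and DMSO-treated OPCs (3.65 ± 0.734 CPM, n = 4). Here both steps around DTG-treated OLs were free of overlap. Within a group, the highest library had between 2.05 and 2.65 times the Mbp level of the lowest, against 1.20 to 1.59 times for Mog.

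In the 2 libraries counted on the other gene models, untreated OPCs of replicate 3 had 155 CPM of Mbp and 0.401 CPM of Mog, without TMM scaling. Untreated OLs of replicate 3 had 7851 CPM of Mbp and 25.5 CPM of Mog. The Mog value of the OPC library rests on 6 counts, where the other untreated OPC libraries had 62 to 86. In these gene models Mog has 1743 exonic bases and Mbp 3469. The part of the gene models in the low Mog count was not tested.

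The comparison of OLs with OPCs addressed how far both transcripts rose in 72 hours of differentiation. With DMSO, Mbp rose by 5.25 on the log2 scale (SE 0.39), a 38.0-fold rise, with an adjusted p of 1.08e-06 (quasi-likelihood test of edgeR, adjusted by Benjamini-Hochberg over 13023 genes). Mog rose by 3.63 (SE 0.24), or 12.4-fold, with an adjusted p of 4.33e-07. Both passed the thresholds of the study, an adjusted p under 0.05 together with a log2 fold change beyond 1 in either direction. These were passed upwards by 14.0% of the genes tested and in either direction by 32.3%. The size of the rises depended on the scaling. Scaled to ERCC counts, from synthetic transcripts added to the RNA, the median of all genes lay at -1.48 in this comparison, Mbp rose by 3.77 and Mog by 2.17 on the log2 scale, and 2.1% of genes were called higher and 48.0% lower. Relative to that median, Mbp was at 5.25 and Mog at 3.64. When genes were ordered by log2 fold change from the largest rise, Mbp was number 44 and Mog number 167 of 13023. Both genes were free of overlap between the groups, as were 22.4% of all genes tested in the upward direction.

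Each replicate number showed both rises. Across the stages, same-numbered libraries deviated together from their group means only in part, with correlations across genes of 0.348, 0.033, 0.0879 and 0.439 between DMSO-treated OPCs and OLs. Between DMSO-treated OPCs and OLs of the same replicate number, Mbp was 31.2, 37.2, 52.3 and 30.4 times higher in replicates 1 to 4. Mog was 11.2, 19.0, 11.1 and 10.1 times higher. Replicate 3 had the largest rise of Mbp and replicate 2 that of Mog.

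Differentiation also raised both transcripts in the other conditions. Between untreated OPCs and OLs, Mbp rose by 4.73 on the log2 scale (SE 0.43, adjusted p = 3.33e-05) and Mog by 3.20 (SE 0.21, adjusted p = 7.70e-06), both by edgeR's quasi-likelihood test. In that comparison 10.9% of the genes tested rose past the thresholds, and 3.41% did so when scaled to ERCC counts. With DTG at both stages, Mbp rose by 4.18 (SE 0.37, adjusted p = 6.85e-06) and Mog by 2.48 (SE 0.22, adjusted p = 6.66e-06) in the same test, where 16.4% of genes rose. Scaled to ERCC counts, the rises with DTG were 2.71 for Mbp and 1.22 for Mog, with the median of all genes at -1.35. On that scale 3.55% of genes were called higher and 59.7% lower with DTG. In fold terms within litters, Mbp was 13.7, 19.8, 21.7 and 16.3 times higher in DTG-treated OLs than in DTG-treated OPCs. For Mog the corresponding folds were 5.52, 6.25, 5.17 and 5.72. In each litter both folds were smaller with DTG than with DMSO.

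The comparison of DTG-treated with DMSO-treated OLs addressed whether the drug lowered myelin gene transcripts. In DTG-treated OLs of replicates 1 to 4, Mbp stood at 32.5%, 37.1%, 42.3% and 39.6% of the level in DMSO-treated OLs of the same replicate. Mog stood at 57.8%, 41.2%, 44.3% and 59.4%. Both were lower in 4 of 4 litters. The litters with the lowest remaining share differed between the genes, as Mbp was reduced most in replicate 1 and Mog in replicate 2.

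Mog fell by 1.01 on the log2 scale (SE 0.16, adjusted p = 0.0116, edgeR's quasi-likelihood test over 12710 genes) and passed both thresholds, the second by a small margin. It was 1 of 26 genes called lower, 0.205% of the genes tested, beside 45 (0.354%) called higher. Scaled to ERCC counts, Mog was not called, at -0.58 (SE 0.56, adjusted p = 0.831). The split of calls depended on the scaling and on single libraries, with 1 gene lower and 16 higher under ERCC scaling, and 7 lower and 22 higher without DMSO-treated OLs of replicate 2. The groups did not overlap, which held in the downward direction for 4.38% of all genes. With the replicate as a block the fold change of Mog was -1.002 (SE 0.16) with an adjusted p of 0.000173. When each of the 8 libraries was left out in turn, the log2 fold change of Mog ranged from -1.11 to -0.94 and the gene passed both thresholds in 2 of the 8 fits. It missed the minimum fold change in the other 6, and without DMSO-treated OLs of replicate 2 its adjusted p was also 0.0637.

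Mbp had the larger difference of both genes, a log2 fold change of -1.40 (SE 0.33, 95% confidence interval -2.12 to -0.68), and did not pass, with an adjusted p of 0.0772 in the same test. The group ranges overlapped by 1 pair of libraries, since DMSO-treated OLs of replicate 4 had less Mbp than DTG-treated OLs of replicate 3. With the replicate as a block, Mbp passed, with a log2 fold change of -1.41 (SE 0.16) and an adjusted p of 1.20e-06. That blocked fit called 73 genes lower, 0.574% of those tested. The standard error was thus 0.33 without and 0.16 with the block, at a nearly equal fold change. Mbp also passed in DESeq2's Wald test, the kind of test that the paper used, at an adjusted p of 0.000963. In edgeR's quasi-likelihood test without the filter on low counts, Mbp passed at an adjusted p of 0.00958. It passed in 0 of the 8 fits without 1 library, and with ERCC scaling it was at -1.05 with an adjusted p of 0.831.

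**Figure D2:**
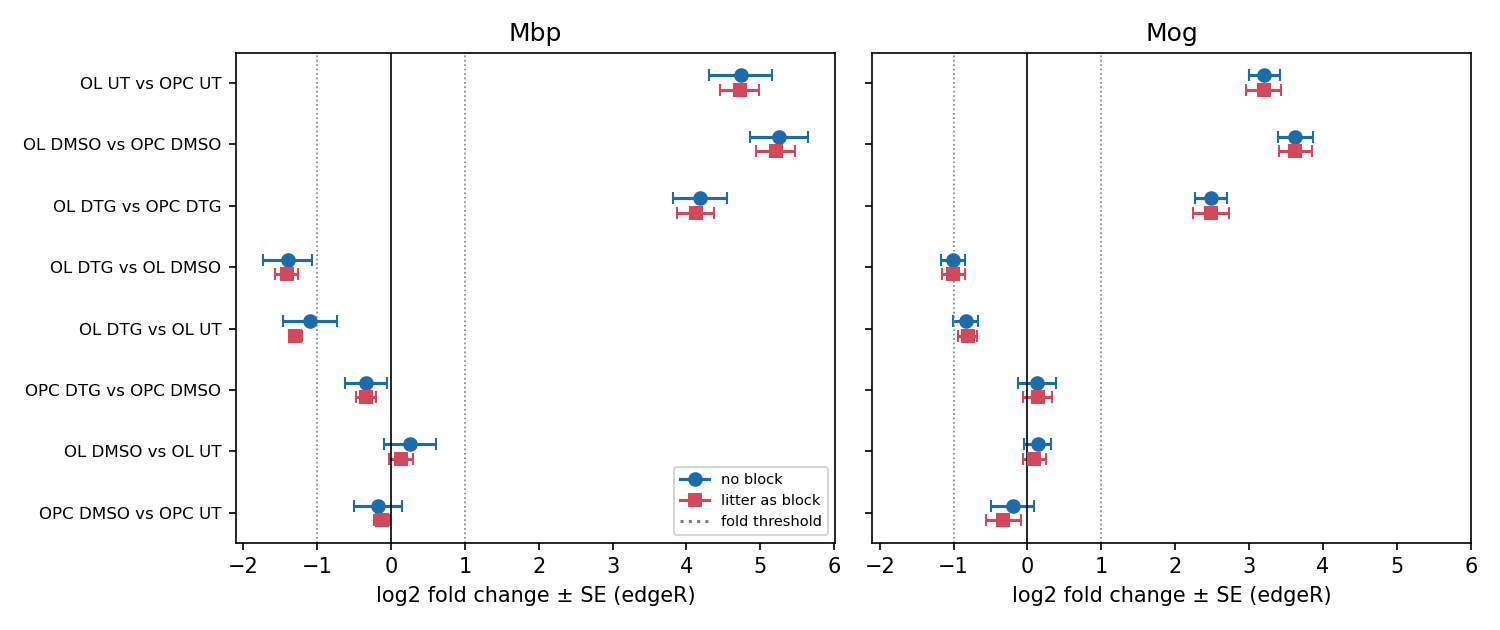
Log2 fold change ± SE of Mbp (left) and Mog (right) in 8 comparisons, from edgeR fits without a block (circles) and with the litter as a block (squares). Dotted lines mark a log2 fold change of 1 in either direction. For Mbp in DTG-treated against DMSO-treated OLs the SE is 0.33 without and 0.16 with the block, around -1.40 and -1.41, and Mog lies at -1.01 and -1.002.

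Against untreated OLs, which share the DTG-treated libraries with the comparison above, Mbp in DTG-treated OLs had a log2 fold change of -1.10 (SE 0.37, adjusted p = 0.270, edgeR's quasi-likelihood test). Mog had -0.83 (SE 0.17, adjusted p = 0.0798). Neither passed, where 0.0698% of genes were called lower. In the fit with the replicate as a block Mbp passed, at -1.29 (SE 0.087, adjusted p = 0.000192), beside 0.458% of genes called lower. Mog had an adjusted p of 0.00699 there and a log2 fold change of -0.81, within the minimum fold change.

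DMSO alone was compared with no treatment. In OLs the log2 fold change with DMSO was 0.26 for Mbp (95% confidence interval -0.50 to 1.02) and 0.14 for Mog (-0.25 to 0.52). In OPCs it was -0.18 for Mbp (-0.90 to 0.55) and -0.20 for Mog (-0.84 to 0.44). Without 1 library at a time Mog ran from 0.0069 (without untreated replicate 4) to 0.26 (without untreated replicate 2) in OLs, and from -0.32 (without DMSO-treated replicate 3) to -0.079 (without DMSO-treated replicate 2) in OPCs. None of the 4 main values passed (adjusted p between 0.731 and 1.00 in edgeR's quasi-likelihood test), and 0% of genes were called in either comparison. Without a block, the intervals for Mbp reach 1.02 in OLs and -0.90 in OPCs. With the replicate as a block the log2 fold change of Mbp was 0.14 (SE 0.17) in OLs and -0.13 (SE 0.11) in OPCs, and that of Mog was 0.09 (SE 0.16) and -0.33 (SE 0.24). Within litters, both genes were higher with DMSO in 3 of 3 OL pairs, by 0.15 to 0.21 for Mbp and 0.07 to 0.20 for Mog, and lower in 3 of 3 OPC pairs, with differences of -0.23 to -0.03 and -0.55 to -0.21.

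At the OPC stage, 24 hours of DTG left no called difference. Mbp had a log2 fold change of -0.34 (SE 0.28, 95% confidence interval -0.96 to 0.28, adjusted p = 0.906) and Mog of 0.13 (SE 0.26, interval -0.44 to 0.70, adjusted p = 0.911) in edgeR's quasi-likelihood test. None of the 13270 genes tested was called (0%), 66 had an unadjusted p under 0.05, and DESeq2 called 0. The number with an unadjusted p under 0.05 was 889 with the replicate as a block, and it ran from 26 without DMSO-treated replicate 2 to 869 without DMSO-treated replicate 3, with 251 without DTG-treated replicate 4, at 0 calls in each of these fits. Without 1 library at a time, the log2 fold change ran from -0.50 to -0.15 for Mbp, nearest to 0 without DMSO-treated replicate 2 (-0.15) and DTG-treated replicate 4 (-0.16), and from 0.0091 to 0.22 for Mog, lowest without DMSO-treated replicate 2. Within litters, Mbp in DTG-treated OPCs was at 74.1%, 69.7%, 102% and 73.8% of the DMSO-treated level, lower in 3 of 4 litters. Mog was at 117%, 125%, 95.2% and 105%. With the replicate as a block, Mbp had an unadjusted p of 0.0319 and an adjusted p of 0.503.

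**Figure D3:**
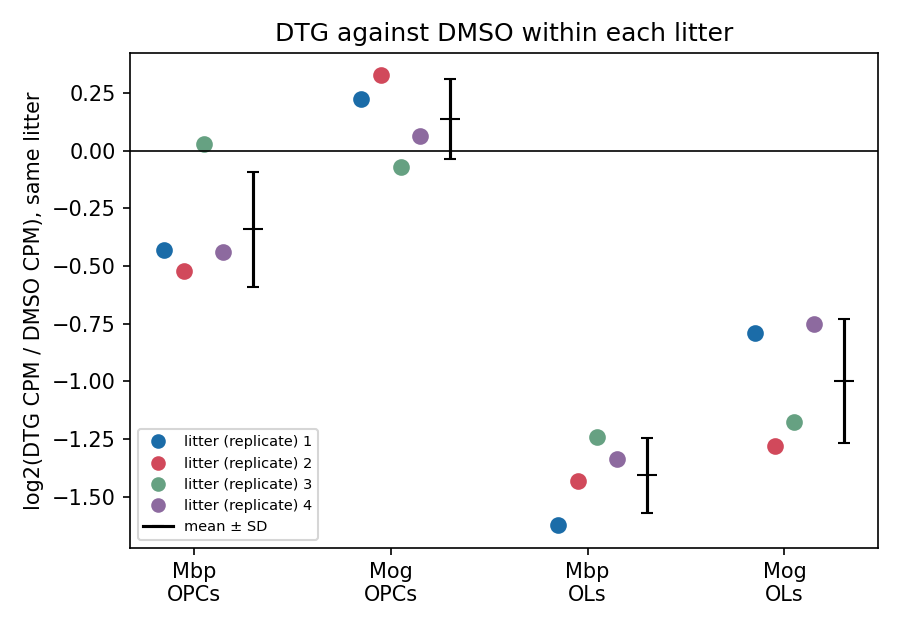
Log2 ratio of the CPM in DTG-treated to that in DMSO-treated cells of the same litter, for Mbp and Mog in OPCs and OLs. Each point is 1 litter and the bar is the mean ± SD of 4. In OLs all 8 ratios are below 0, from -1.62 to -0.75, and in OPCs they lie between -0.52 and 0.33.

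Whether the response to DTG differed between stages was tested as an interaction over 16 libraries. The response in OLs minus that in OPCs was -1.03 on the log2 scale for Mbp (SE 0.49) and -1.11 for Mog (SE 0.28). Mog was number 13 and Mbp number 360 of 13734 genes by unadjusted p (0.000818 and 0.0494), and the adjusted p was 0.858 and 1.00 in edgeR's quasi-likelihood test. No gene was called (0%), 366 had an unadjusted p under 0.05, and DESeq2 called 4. Those 366 were 610 with the replicate as a block, 564 without the filter on low counts and 63 with ERCC scaling. With 1 library left out they were 640 without DMSO-treated OPCs of replicate 3, 637 without DTG-treated OPCs of replicate 4, 237 without DMSO-treated OLs of replicate 2 and between these in the other fits, with 0 calls in each. With the replicate as a block, the difference was -1.02 for Mbp (SE 0.25, unadjusted p = 0.000983, adjusted p = 0.548) and -1.12 for Mog (SE 0.24, unadjusted p = 0.000361, adjusted p = 0.425). DESeq2's Wald test gave an adjusted p of 0.104 for Mog. Within litters the response in OLs was below that in OPCs in 4 of 4 for both genes, by differences of -1.19, -0.91, -1.27 and -0.90 for Mbp and -1.02, -1.61, -1.10 and -0.82 for Mog in replicates 1 to 4. The difference between the stages did not pass the adjustment over all genes for either gene in any of these fits.

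As a description, the log2 difference between DTG-treated and DMSO-treated OLs was set against the log2 rise from DMSO-treated OPCs to DMSO-treated OLs in each litter. For Mbp the missing part was 32.7%, 27.4%, 21.7% and 27.1% of the log2 rise in replicates 1 to 4, a mean of 27.2% ± 4.48 (SD, n = 4). For Mog it was 22.7%, 30.1%, 33.8% and 22.5%, a mean of 27.3% ± 5.6 (n = 4). Both quantities contain the DMSO-treated OL library, so they are not independent of each other. On this log2 scale the mean parts of the genes differed by less than the spread between litters. In CPM, DTG-treated OLs held 32.5% to 42.3% of the Mbp of DMSO-treated OLs and 41.2% to 59.4% of the Mog, within litters.

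The ratio of both transcripts within a library does not depend on how libraries are scaled. Per exonic kilobase, DMSO-treated OPCs held 26.9, 52.4, 21.1 and 19.4 times as much Mbp as Mog in replicates 1 to 4. DMSO-treated OLs held 75.2, 103, 99.3 and 58.6 times as much. The groups did not overlap, and the mean log2 ratio was 1.57 higher in OLs, a factor of 2.97. The two-sided exact permutation test gave p = 0.0286, the smallest p that 4 against 4 libraries allow, and 0.0857 after adjustment over the 3 comparisons made.

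With DTG, the ratio in OLs was 42.3, 92.5, 94.8 and 39.0. Replicates 2 and 3 lay within the DMSO-treated range and replicates 1 and 4 below it. The library names of replicates 2 and 3 share 1 date, and the part of the date in this split was not tested. The log2 ratio was 5.95 ± 0.698 with DTG and 6.35 ± 0.380 with DMSO (SD, n = 4 each; two-sided exact permutation test, p = 0.286, adjusted p = 0.314). In OPCs the ratio was 17.1, 29.2, 22.5 and 13.7 with DTG, with a log2 mean of 4.31 ± 0.475 against 4.78 ± 0.651 with DMSO (n = 4 each, two-sided exact permutation test, p = 0.314, adjusted p = 0.314). Within litters, the log2 ratio in OLs was lower with DTG in 4 of 4 litters, by differences of -0.83, -0.15, -0.07 and -0.58 in replicates 1 to 4, and an exact sign-flip test of these pairs gave p = 0.125, the smallest that 4 pairs allow. In OPCs it was lower in 3 of 4 litters (exact sign-flip test, p = 0.25). Neither test passed at either stage, and the paired one could not have passed. The mean difference of the log2 ratio ran from -0.61 to -0.19 in OLs, smallest in size without DTG-treated replicate 4 and at -0.23 without DTG-treated replicate 1, when 1 library was left out. In OPCs it ran from -0.66 to -0.17, smallest in size without DMSO-treated replicate 2 and at -0.30 without DTG-treated replicate 4. Among untreated cells the ratio was 27.2, 39.3 and 16.4 in OPCs and 73.5, 102 and 55.3 in OLs, in replicates 1, 2 and 4.

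**Figure D4:**
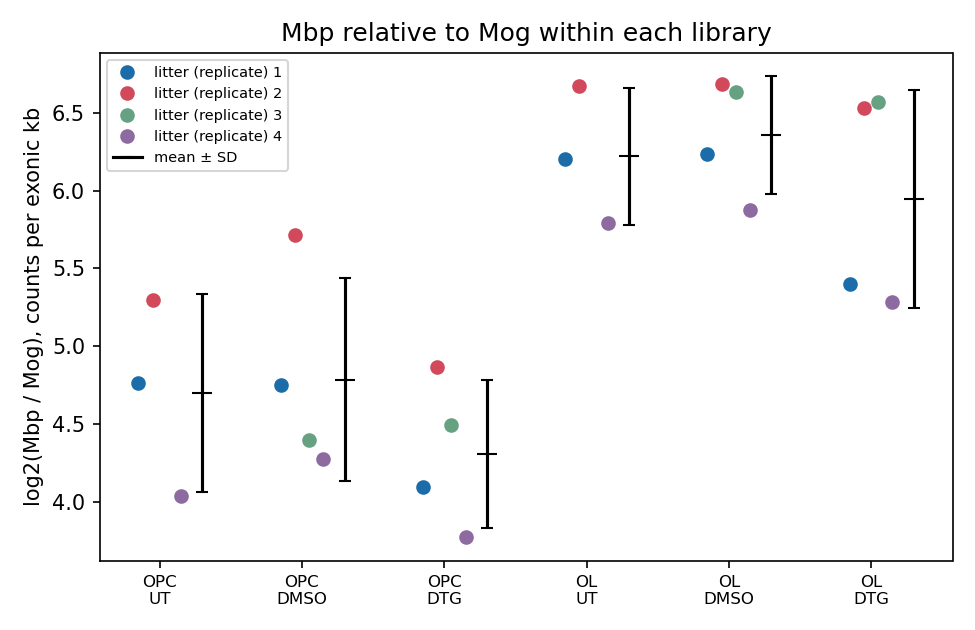
Log2 ratio of Mbp to Mog in counts per exonic kilobase, 1 point per library coloured by replicate, with the mean ± SD of each group. All DMSO-treated OL libraries lie above all DMSO-treated OPC libraries, and the DTG-treated OLs divide into replicates 2 and 3 near 6.5 and replicates 1 and 4 near 5.3. The library names of replicates 2 and 3 share 1 date.

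Genes that followed Mbp and Mog most closely were sought across the 11 OL libraries of the same gene models, by Pearson correlation of log2 CPM among 12342 genes. The libraries share litters and treatments, so these values describe a pattern and carry no p. Closest to Mbp was Cnksr3 (r = 0.998), followed by Enpp6 (0.991), a phosphodiesterase marking newly formed OLs, S1pr5 (0.975), a sphingosine-1-phosphate receptor of OLs, Adamts4 (0.971), an extracellular protease of OLs, and Gjc3 (0.971), a connexin of myelinating glia. After the mean of each OL group was subtracted, a step added after the values were seen, Cnksr3 still had r = 0.996 with Mbp and ranked first. Enpp6 had r = 0.988 with Mbp after this step.

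Cnksr3, a scaffold protein of signalling at the membrane, was counted at 104 ± 30.4 CPM in DMSO-treated OLs, 51.3 ± 17.2 CPM in DTG-treated OLs and 11.5 ± 2.2 CPM in DMSO-treated OPCs (SD, n = 4 each). Enpp6 and Adamts4 had log2 fold changes of -1.08 (SE 0.31, adjusted p = 0.131) and -1.08 (SE 0.31, adjusted p = 0.141) in DTG-treated against DMSO-treated OLs and, like Mbp, did not pass edgeR's quasi-likelihood test. Gjc3 stood at 24.8 ± 11.3 CPM with DMSO and 5.89 ± 2.59 CPM with DTG in OLs (n = 4 each). These genes were chosen for following Mbp over libraries that include the DTG-treated OLs. Their lower levels with DTG are therefore no separate observation.

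The genes closest to Mog depended on the measure, as Spearman's correlation kept 0 of the 5 and subtracting the group means kept 1. For Mbp each kept 2 of 5. By Pearson's correlation, closest to Mog was Fam163a (r = 0.975), which ranked second after the group means were subtracted (r = 0.940). Next came 2 genes without a symbol in the tables used here, ENSRNOG00000050741 and ENSRNOG00000054360 (both 0.95 when rounded, ranked 205 and 118 after the group means were subtracted), then Fen1 (0.948), a nuclease of DNA replication, and Lmnb2 (0.944), a nuclear lamin. Fen1 was lower in OLs than in OPCs, at 18.5 ± 2.10 against 59.6 ± 14.6 CPM with DMSO (SD, n = 4 each), and followed Mog among OL libraries alone. After the group means were subtracted its correlation with Mog was 0.709, at rank 307, and Lmnb2 was at rank 87. Mbp and Mog were correlated at 0.856 over the 11 libraries and at 0.649 within groups. Mog was the 100th closest gene to Mbp, and no gene was among the 5 closest of both.

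**Figure D5:**
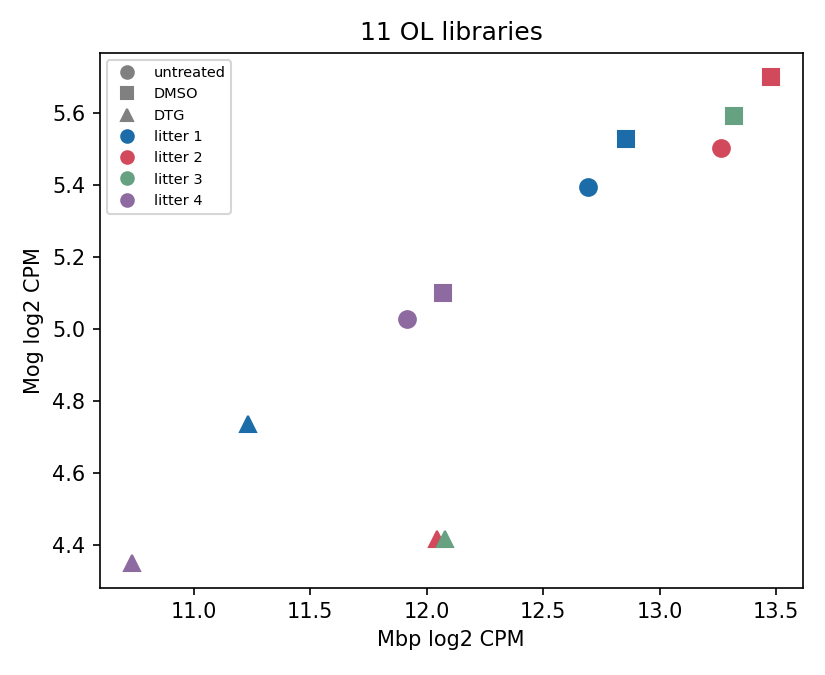
Mog against Mbp in the 11 OL libraries, both in log2 CPM, with the symbol giving the treatment and the colour the litter. The DTG-treated libraries of replicates 2 and 3 have about the Mbp level of the untreated and DMSO-treated libraries of replicate 4, at a lower Mog level (21.4 against 32.6 and 34.3 CPM).

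Gene lists for the surroundings of both transcripts could be followed only in part, since 2107 identifiers had a symbol in the copies of the paper's tables used here, 1 of which was cut short. Of 20 myelin membrane proteins Mbp and Mog were the 2 found, and of 16 genes of myelin lipid synthesis and 12 transcription factors of the myelin program 0 were found. The tables hold genes that the study called in DTG-treated against DMSO-treated OLs and genes that it found to fall in differentiation, so whether a gene has a symbol depends on how it moved. Counts of the named genes in these lists therefore say nothing of the lists, and the values below are a description. Of the genes listed as inhibitors of OL differentiation 2 of 13 were found, and of the genes that handle Mbp mRNA 2 of 9. None of these 4 passed the thresholds in DTG-treated against DMSO-treated OLs. Hes1 and Sox9, transcription factors on the first of these lists, had log2 fold changes of -0.01 and 0.33. Sox9 was also listed as an astrocyte marker. Hnrnpa1, an RNA-binding protein, had -0.38, and Ckap5, a microtubule-associated protein of RNA transport granules, had 0.02. In either direction, 0.559% of all genes were called in this comparison.

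Markers were set beside the labels of the cultures. The OPC markers found were 2 of 9, Pdgfra, the receptor of platelet-derived growth factor, and Cspg4, the NG2 proteoglycan. They summed to 542 to 1076 CPM in DMSO-treated OPCs, 170 to 339 CPM in DMSO-treated OLs and 132 to 314 CPM in DTG-treated OLs. The early OL markers found were 2 of 6, Enpp6 and Adamts4. They summed to 4.47 to 11.6 CPM, 119 to 333 CPM and 60.1 to 151 CPM in the same groups. The 3 of 7 neuronal markers found, Snap25, Map2 and Gad1, summed to 170 to 389 CPM in DMSO-treated OPCs, 68.1 to 100 CPM in DMSO-treated OLs and 78.8 to 116 CPM in DTG-treated OLs. Map2 made up most of the sum in OPCs as in OLs, with 235 ± 108, 84.1 ± 12.7 and 89.9 ± 16.5 CPM in the same order (SD, n = 4 each). The single astrocyte marker found, Sox9, was at 240 ± 38.4, 92.3 ± 13.6 and 116 ± 17.0 CPM in these 3 groups, and the single Schwann cell marker, Egr2, at 3.45 ± 1.58, 0.517 ± 0.251 and 0.599 ± 0.436 CPM. All 5 of these genes fell from DMSO-treated OPCs to OLs, where Mbp and Mog rose. Their log2 fold changes were -3.17 for Snap25, -1.47 for Map2, -4.04 for Gad1, -1.38 for Sox9 and -2.72 for Egr2. Each was called lower, beside 18.3% of all genes tested. Whether a marker has a symbol depends on how it moved, so the shared direction of these genes says nothing of the marker lists. The same holds for the directions of the OPC and early OL markers, with differentiation and with DTG. In DTG-treated cells Sox9 was not called (-0.97) and in untreated cells Map2 was not called (-0.45). Snap25, Gad1 and Egr2 were called lower in both, beside 22.9% of all genes with DTG and 11.7% without treatment. The part of these 5 genes in the rise of Mbp and Mog was not tested. No marker of microglia or of fibroblast, mural and endothelial cells was among the genes with a symbol.

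Counts on mitochondrial genes moved with the drug. They made up 2.04% to 2.55% of the counts on genes in DMSO-treated OLs and 3.96% to 5.70% in DTG-treated OLs. With TMM factors computed without these genes, the log2 fold changes of Mbp and Mog in that comparison kept their side of both thresholds. Spike-in ERCC counts ran from 2.19% to 7.19% of all counts in DMSO-treated and from 1.89% to 3.72% in DTG-treated OLs. Scaling to them raised the median of all genes in DTG-treated against DMSO-treated OLs from 0.01 to 0.44 on the log2 scale. On that scale Mog was at -0.58 and Mbp at -1.05, and neither passed (adjusted p = 0.831 for both, edgeR's quasi-likelihood test). Relative to the shifted median they were at -1.02 and -1.49.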

How the data were processed

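RNA of 24 libraries was enriched for poly(A) transcripts and sequenced. The authors deposited raw counts of uniquely mapped reads on exons per gene, with 92 ERCC transcripts, and did not pool replicates. The submitters' processing notes name bcl2fastq 2.20, STAR 2.5.2b, featureCounts of Subread 1.5.2 and Rnor_6.0. The 2 untreated libraries of replicate 3 use other gene models and were left out of the tests.

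Each comparison was fitted on its own libraries in R 4.3.3 with edgeR 4.0.16: ERCC rows removed, filterByExpr, TMM, a quasi-likelihood F test and Benjamini-Hochberg adjustment over all genes tested. Calls needed an adjusted p under 0.05 and a log2 fold change beyond 1 in either direction. The paper's thresholds were thus applied to another test than its own, which was DESeq2's Wald test. DESeq2 1.42.0 was an alternative here. The Mbp to Mog ratio was compared by two-sided exact permutation (scipy 1.17.1).

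Replicate numbers pair libraries: the paper states that replicates are separate litters, and library names of 1 number share a date. Replicates 2 and 3 share 1 date. Deviations from group means correlated across 14046 genes at 0.361, 0.364, 0.304 and 0.0328 between DMSO-treated and DTG-treated OLs, and at 0.641, -0.0703, 0.516 and 0.789 in OPCs. Across stages they correlated at 0.348, 0.033, 0.0879 and 0.439 with DMSO, 0.299, -0.0344, 0.083 and -0.288 with DTG and 0.121, 0.0209 and 0.0371 without treatment, so the pairing across stages rests on the stated litters and dates, not on the data. Values with the replicate as a block are printed where they change a call or move a count of calls by over 1.5 times. Counts between 40 and 95 limit the precision of Mog in OPCs.

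Named were Mbp, Mog, all genes of the lists with a symbol, and the 5 genes most like each member. The members and lists were chosen with earlier results of these data known. Symbols came from copies of tables accompanying the paper, 1 of them cut short, which as used here pair 2107 identifiers and hold the authors' fold changes and p-values. Those values were not used.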

Additional observations from a re-analysis of the deposited data

Results flagged for a closer look

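Mog in DTG-treated OLs of replicate 1 stood apart from its group by Dixon's test of the gap to the nearest library, at 26.6 CPM against 20.4 to 21.4 CPM in replicates 2 to 4. Without that library the log2 fold change of Mog in DTG-treated against DMSO-treated OLs was -1.11, and it passed both thresholds. Gad1, an enzyme of inhibitory neurons, was flagged in the same way in DTG-treated OPCs of replicate 4, at 53.4 CPM against 20.5 to 22.9 CPM in the others. These 2 flags came from 60 groups of 4 libraries examined, of which chance flags about 1 in 20.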

How the results depend on the processing

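Both rises in differentiation kept their direction and passed both thresholds under every alternative run, in all 3 treatments, but scaled to ERCC counts they were 3.77 and 2.17 for Mbp and Mog with DMSO, 2.71 and 1.22 with DTG and 3.94 and 2.62 without treatment. In DTG-treated against DMSO-treated OLs the log2 fold change of Mbp, not called at -1.40, was called at -1.39 with DESeq2's Wald test, at -1.38 without the filter on low counts and at -1.41 with the replicate as a block. That of Mog, called at -1.01, was not called at -0.58 when scaled to ERCC counts. Against untreated OLs, the block called Mbp at -1.29. The block changed no other call of Mbp or Mog. For the ratio of Mbp to Mog, within-litter differences cannot reach a sign-flip p under 0.125, and the exact test without 1 library cannot go under 0.0571.

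Values that were not called changed sign in these cases. Under ERCC scaling, which moved the median of all genes by over 0.1 in each comparison of 2 groups, Mbp was at 0.015 with DTG in OPCs, and DMSO against no treatment gave -0.11 for Mbp and -0.30 for Mog in OLs and 0.058 and 0.16 in OPCs. Relative to the shifted median each kept its sign, at -0.30, at 0.43 and 0.25, and at -0.23 and -0.13. With untreated replicate 3 included, Mog in DMSO-treated against untreated OPCs was at 0.15. The cause of this last change was not tested.

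Leaving out 1 library at a time gave -1.60 to -1.19 for Mbp and -1.11 to -0.94 for Mog in DTG-treated against DMSO-treated OLs. It gave -0.022 to 0.65 for Mbp in DMSO-treated against untreated OLs, negative only without untreated replicate 4, and -0.45 to 0.031 in OPCs, positive only without untreated replicate 2.

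The number of genes called in DTG-treated against DMSO-treated OLs was 71, and it was 129 with DESeq2, 112 without the filter on low counts, 168 with the block, 108 without the minimum fold change and 17 with ERCC scaling. It was 29 without DMSO-treated OLs of replicate 2 and 46 without DTG-treated OLs of replicate 3. Against untreated OLs it was 44, and 117 with DESeq2, 87 without the filter, 154 with the block and 8 with ERCC scaling, and 6 to 39 with 1 library left out, lowest without untreated replicate 1. In differentiation it was 4203 with DMSO, 5174 with DTG and 2974 without treatment, 6526, 8327 and 1795 with ERCC scaling and 6848, 8215 and 4983 without the minimum fold change. DMSO against no treatment gave 3 calls with the block in OLs and 3 in OPCs, against 0 without, where 1383 and 78 genes had an unadjusted p under 0.05 and DESeq2 called 0 in both. Those 1383 and 78 were 2156 and 323 with the block, and with 1 library left out they ran from 620 (without untreated replicate 4) to 2582 (without DMSO-treated replicate 1) in OLs and from 15 (without DMSO-treated replicate 3) to 803 (without DMSO-treated replicate 4) in OPCs. Of the 5 genes most like Mbp and like Mog, Spearman's correlation kept 2 and 0, a prior count of 0.5 kept 5 of both, and subtracting group means kept 2 and 1.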
